A study of Mus musculus with 3 samples.

Results

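A set of 687 TBX5 peaks from mouse fetal heart is described here: active peaks of the authors' non-promoter class that overlap a TBX3 region and carry no H3K9ac region. They were taken from the authors' deposited table by 3 entries per peak, namely the class of active non-promoter, an overlap with TBX3 regions and no overlap with an H3K9ac region. They made up 5.52% of the 12436 peaks of the table (95% interval 5.13 to 5.94) and 11.0% of the 6237 active non-promoter peaks. The binding comes from ChIP-seq, the sequencing of DNA precipitated with its bound protein, in whole E14.5 hearts of CD-1 embryos, an outbred mouse stock. The 2 TBX5 samples, precipitated with a TBX5 antibody, were set against 1 input sample of unprecipitated heart chromatin. Both groups came from the same stock, tissue and stage, and no animal carried a mutation or treatment that the labels name. Chambers, conduction tissue and all cell types were pooled in the whole heart, so a peak cannot be placed in 1 of them.

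TBX5 and TBX3 are T-box transcription factors that recognise closely related DNA sequences. TBX5 is best known as an activator of genes of the atria, the ventricles and the conduction system, while TBX3 is best known as a repressor of chamber genes in the conduction system, and sites bound by both are therefore of interest for how the myocardium is divided. H3K27ac and H3K4me1 are histone marks of active enhancers, H3K4me3 is typical of promoters, and H3K9ac is an acetylation found at active promoters and at part of the active enhancers.

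The class label was checked against the other entries of the table. H3K27ac stood at all 6237 active non-promoter peaks in at least 1 of 2 region files and H3K27me3, the Polycomb mark, at none, so the class fixed both marks. All non-promoter summits lay at least 2011 bp from the start that the authors assigned, with 2153 bp for the nearest of the 687, while promoter peaks reached 2000 bp. The tissue and stage of the histone and TBX3 regions and the overlap rule are not stated in the labels. A missing H3K9ac overlap means that 1 region file had no region there, not that the acetylation was measured as absent. The shared regions and TBX5 peaks were not measured in the same sample.

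Sequence could be read for the few peaks that met a RefSeq promoter window (GRCm38.p6, the assembly that mm10 names, 250 bases before to 50 after a start). Of the 687 peaks 4 did so, and in 2 of them the summit, the position of highest signal, lay in the window. The non-promoter class thus holds for the starts that the authors assigned, and not for every RefSeq start. The sequences of these 2 peaks are shown because they let the bases under a summit be seen. They lie on the minus strand at the start of the RefSeq genes Gm34948 and Gm13481, which carry no described function in the files. The first runs over chr2:103896217-103896516, with the summit at base 164 of 300. The second runs over the part of its peak inside the window, chr2:48457216-48457377, with the summit at base 125 of 162. Capitals mark AAGTG or its complement CACTT, the core of the motif of NKX2-5, a homeobox partner of TBX5.
Gm34948 start: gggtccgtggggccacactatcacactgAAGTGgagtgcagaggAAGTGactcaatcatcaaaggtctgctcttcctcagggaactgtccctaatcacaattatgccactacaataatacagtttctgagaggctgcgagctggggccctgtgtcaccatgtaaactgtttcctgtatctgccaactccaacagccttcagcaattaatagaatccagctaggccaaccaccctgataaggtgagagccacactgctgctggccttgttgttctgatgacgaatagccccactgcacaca
Gm13481 start: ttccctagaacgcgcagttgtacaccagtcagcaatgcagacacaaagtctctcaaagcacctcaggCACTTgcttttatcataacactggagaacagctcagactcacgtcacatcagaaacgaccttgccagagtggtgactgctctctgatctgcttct

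The peak at the Gm34948 start had 6.91-fold enrichment and the one at the Gm13481 start 5.56-fold. Letters searched on both strands were AGGTGT and GGTGTGA for T-box factors, AGATAA for GATA factors, GGAATG for TEAD factors and AAGTG for NKX2-5, and the T-box pair overlaps itself by sharing GGTGT. None of these T-box, GATA or TEAD letters was in either sequence. For GATA factors only AGATAA was searched. A form that differs from it in the first base alone stands unmarked in both sequences, in the second on the other strand. The search therefore does not show that a GATA motif was missing. AAGTG or CACTT stood at bases 29 and 45 of the first sequence and at base 68 of the second. Of 32817 RefSeq promoter windows of 300 bases, 13.7% held AGGTGT, 3.98% GGTGTGA, 11.2% AGATAA, 14.7% GGAATG and 46.4% AAGTG. Over the first 162 bases of these windows the shares were 8.15%, 2.24%, 7.03%, 8.75% and 29.0% in the same order. A match is a description of letters and not a site.

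Enrichment is the authors' fold, which divides the pooled ChIP signal at a summit by its local background. Since all peaks were called once on the pooled samples, no spread between the replicates exists for any value, and peaks are not replicates of a condition. The classes of peaks are therefore set side by side without a test, and no difference between them is called particular to the 687 peaks. Intervals of medians and shares are exact 95% intervals that treat peaks as independent, and intervals of a single fold are exact Poisson intervals of the fragment count at a fixed background. Both kinds cover counting error only.

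The 687 peaks had a median fold of 6.28 (interval 6.04 to 6.62), with quartiles of 4.97 and 9.25 and a range of 2.71 to 60.9. The 1062 active non-promoter peaks that were shared with TBX3 and carried H3K9ac had a median of 5.67 (5.52 to 5.91). The 2805 that lacked both had a median of 6.59 (6.44 to 6.77). The H3K9ac-negative shared peaks thus lay between these classes, 1.11 times as high as the H3K9ac-marked shared peaks and 0.953 times as high as the unshared H3K9ac-negative ones. The 1683 unshared active non-promoter peaks with H3K9ac had a median of 5.75 (5.62 to 5.92). The median fold was thus lower with the H3K9ac entry that the rule used, with or without TBX3. A fold of at least 10 was reached by 148 of the 687 (21.5%), against 16.7% of all 12436 peaks. A fold of at least 20 was reached by 35 (5.09%, 3.57 to 7.01), an interval that holds the 4.07% of all peaks. The authors' −log10 q was at least 10 in 354 (51.5%), against 41.5% of all peaks. The share of 25.6% with at least 10-fold among unshared H3K9ac-negative peaks was higher than that of the 687, and the 16.9% among H3K9ac-marked shared peaks was lower. Among unshared peaks with H3K9ac the share was 18.2%.

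**Figure D1:**
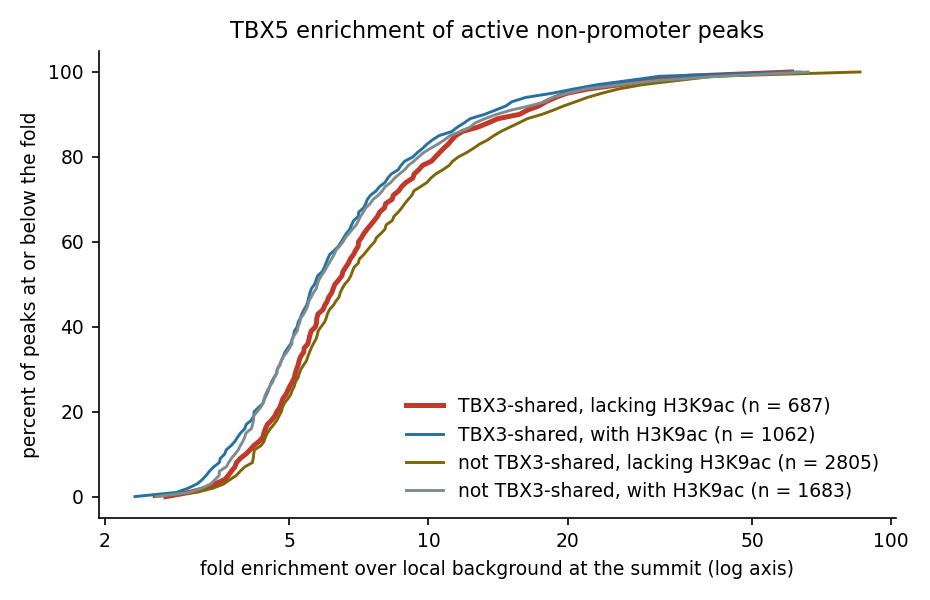
Percent of peaks at or below each fold enrichment (log axis) in the 4 classes of active non-promoter TBX5 peaks. The curve of the 687 TBX3-shared peaks lacking H3K9ac, with a median of 6.28, runs between that of H3K9ac-marked shared peaks (5.67) and that of unshared peaks lacking H3K9ac (6.59).

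The order of the folds was not that of the fragments. The pileup, which counts the pooled fragments that cover a summit, had a median of 23 in the 687 peaks (22 to 24), 24 in the H3K9ac-marked shared peaks (23 to 25) and 22 in the unshared H3K9ac-negative peaks (21 to 22). The median local background was 2.83 in the 687 peaks, 3.53 in the H3K9ac-marked shared peaks and 2.35 in the unshared H3K9ac-negative ones. By pileup alone the order of the classes was therefore turned round, and its medians differed by 1 fragment at each step. Among peaks of 24 to 34 fragments the median fold was 7.58 in the 130 H3K9ac-negative shared peaks, 6.19 in 258 H3K9ac-marked shared peaks and 8.10 in 454 unshared ones. Among peaks of 34 or more fragments it was 13.2, 11.5 and 14.6 in the same order. Background was solved from fold and pileup, so at a given pileup a higher fold is a lower background by definition. The groups by pileup therefore cannot separate the fold from the background. The authors' peak width had a median of 269 bp in the 687 peaks, 285 bp in the H3K9ac-marked shared peaks and 264 bp in the unshared ones.

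**Figure D2:**
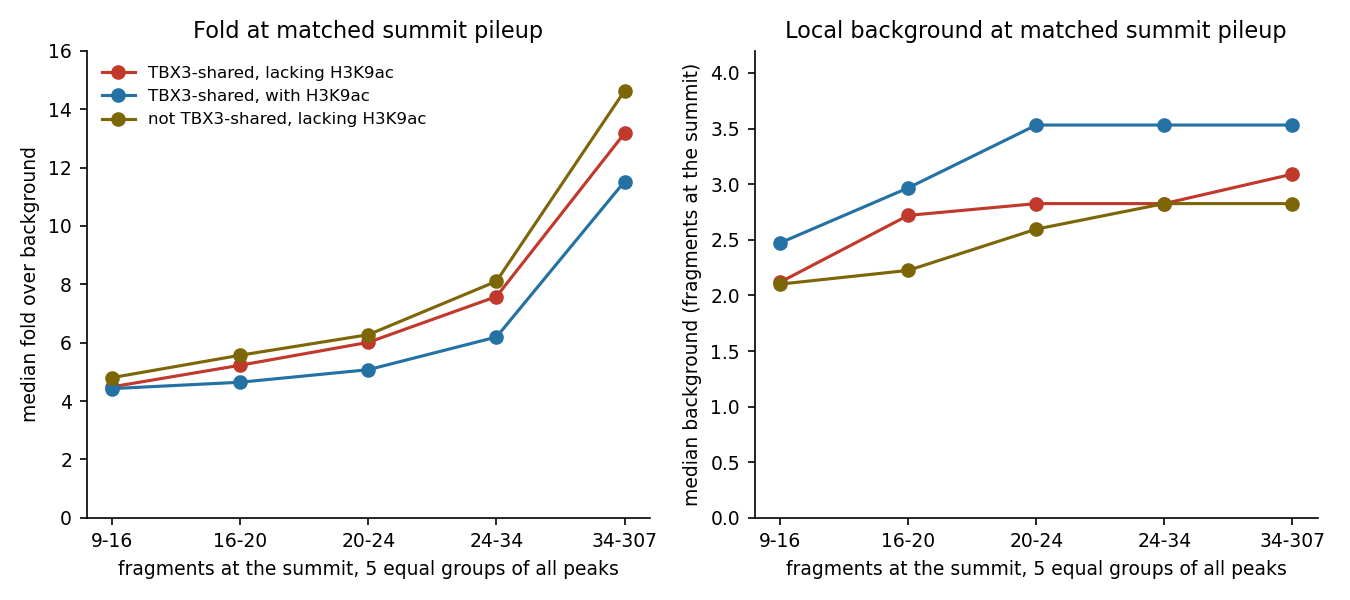
Median fold (left) and median local background in fragments (right) of 3 classes of active non-promoter peaks, in 5 equal groups of all peaks by fragments at the summit. In each group the fold of the TBX3-shared peaks lacking H3K9ac lies between those of the other 2 classes, for example 7.58 against 6.19 and 8.10 at 24 to 34 fragments. At a given pileup, fold and background are tied by definition.

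Of the marks that the selection left free, H3K4me1 was nearly general and H3K4me3 nearly missing. H3K4me1 stood at 672 of the 687 peaks in at least 1 of its 2 region files (97.8%, 96.4 to 98.8), against 95.2% of H3K9ac-marked shared peaks and 94.0% of unshared H3K9ac-negative peaks. Both files marked 572 (83.3%), against 88.8% and 69.7% in the same order. H3K4me3 stood at 12 of the 687 (1.75%, 0.906 to 3.03) and at 400 of the 1062 H3K9ac-marked shared peaks (37.7%, 34.7 to 40.7). Among unshared H3K9ac-negative peaks it stood at 69 of 2805 (2.46%), an interval of 1.92 to 3.10 that overlaps that of the 687. Among the 1683 unshared active non-promoter peaks with H3K9ac it stood at 575 (34.2%, 31.9 to 36.5). The share of H3K4me3 thus differed with the H3K9ac entry that the rule used, with or without TBX3. H3K9me3, a mark of constitutive heterochromatin, stood at 4 of the 687 peaks (0.582%).

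H3K27ac, which the class required in 1 file only, separated the classes when both files were read. It stood in both files at 92.4% (91.0 to 93.6) of the 1683 unshared active non-promoter peaks with H3K9ac. Both files marked 558 of the 687 peaks (81.2%, 78.1 to 84.1), against 96.0% (94.7 to 97.1) of H3K9ac-marked shared peaks and 68.5% (66.8 to 70.2) of unshared H3K9ac-negative peaks. The same order held in each of 5 equal groups of peaks by fold, where the share was 79.3 to 83.0% in the 687 peaks, 94.3 to 98.2% in H3K9ac-marked shared peaks and 64.5 to 71.6% in unshared ones. It also held in each of 4 bands of distance to a start, with 74.5% (64.9 to 82.6) of the 102 peaks beyond 100 kb against 94.9% and 67.5% there, where the interval of the 687 peaks overlaps that of the unshared ones. The most frequent pattern was H3K4me1 and H3K27ac in both files with no other mark, in 482 of the 687 peaks (70.2%). It was followed by H3K27ac in the first file only with H3K4me1 in both, in 68. The most frequent pattern stood at 50.7% of unshared H3K9ac-negative peaks and at 15.8% of all peaks. Peaks with H3K9ac cannot show it, since it requires that no H3K9ac region is met, which the rule fixed.

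**Figure D3:**
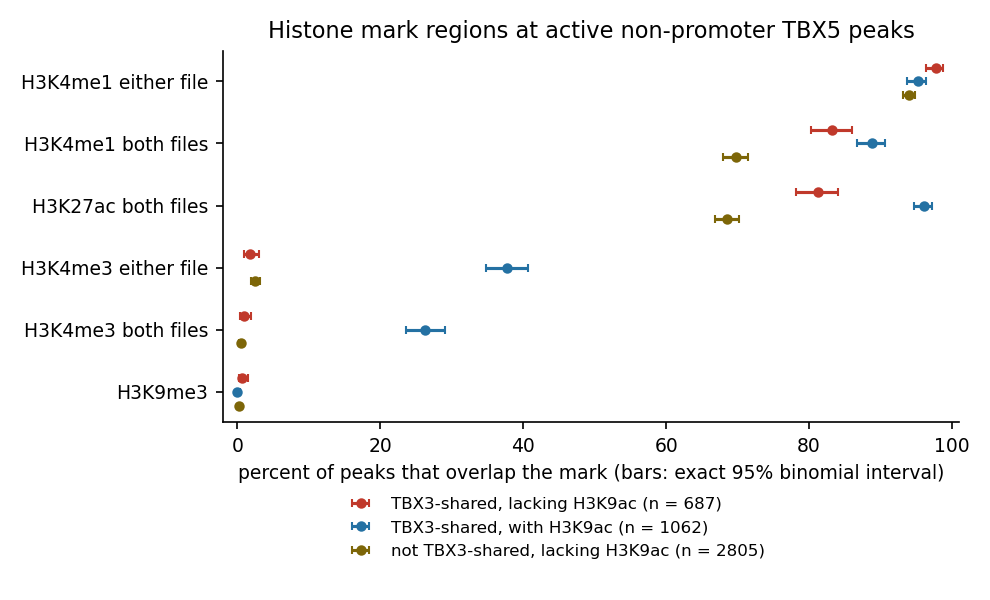
Percent of peaks that overlap each histone mark, with exact 95% binomial intervals, in 3 classes of active non-promoter TBX5 peaks. H3K4me3 in either file marks 1.75% of the TBX3-shared peaks lacking H3K9ac against 37.7% of those with H3K9ac, and H3K27ac in both files marks 81.2% against 96.0%.

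Fold varied little with H3K27ac and H3K4me1 within the 687 peaks. The median was 6.37 in the 558 peaks with H3K27ac in both files (6.04 to 6.68) and 6.09 in the 118 with it in the first file only (5.52 to 7.06). It was 6.21 in the 572 peaks with H3K4me1 in both files, 6.78 in the 100 with it in 1 file and 7.25 (5.37 to 10.5) in the 15 with it in neither. All these intervals overlap. The 12 peaks with H3K4me3 had a median of 8.57, with a wide interval of 4.97 to 29.2. Among them 6 had a fold of at least 10 and 3 of at least 20, and the lowest fold was 4.41. The strongest of them lay 2728 bp from Gjd3 (32.4-fold, 26.98 to 38.6), inside the gene body of Rit1, a small GTPase gene (29.8-fold, 25.3 to 34.8, 2425 bp from its start), and inside the body of Wdr95 (29.2-fold, 24.5 to 34.6).

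The 687 peaks lay at a median of 28246 bp from the assigned start (25598 to 31220), with quartiles of 12296 and 63265 bp. The median was 19851 bp for H3K9ac-marked shared peaks (18321 to 22017) and 41077 bp for unshared H3K9ac-negative peaks (38655 to 43647). For unshared peaks with H3K9ac it was 23153 bp (21718 to 24917). Of the 687, 139 lay within 10 kb of the start (20.2%), 331 at 10 to 50 kb (48.2%), 115 at 50 to 100 kb (16.7%) and 102 beyond 100 kb (14.8%). The share beyond 100 kb was 7.44% in H3K9ac-marked shared peaks and 25.1% in unshared H3K9ac-negative peaks. The farthest of the 687 lay 680083 bp away. Summits lay upstream of the start in 297 cases (43.2%), against 44.1% of all peaks. Inside a protein-coding gene body lay 386 (56.2%), against 58.8% of all peaks. Fold hardly followed distance, with medians of 6.65 (6.04 to 7.25) within 10 kb, 6.09 (5.72 to 6.45) at 10 to 50 kb, 6.44 at 50 to 100 kb and 6.71 (6.01 to 7.71) beyond 100 kb.

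The shares that make up the selection moved with distance. Among TBX3-shared active non-promoter peaks, 31.2% (26.9 to 35.7) lacked H3K9ac within 10 kb of a start, 38.5% (35.2 to 41.8) at 10 to 50 kb, 43.9% (37.8 to 50.1) at 50 to 100 kb and 56.4% (48.8 to 63.7) beyond 100 kb. Among active non-promoter peaks without H3K9ac, the TBX3-shared share was 24.3%, 22.6%, 17.7% and 12.7% over the same bands. Among those with H3K9ac it was 40.8%, 39.4%, 36.9% and 31.1%. The TBX3-shared share was thus lower without H3K9ac than with it in every band, and over all bands it was 19.7% (18.4 to 21.0) and 38.7% (36.9 to 40.5). With fold the share lacking H3K9ac among TBX3-shared peaks also rose. It was 28.4% (23.3 to 34.0) in the weakest of 5 equal groups of peaks and 44.7% (39.7 to 49.7) in the strongest. Neither rise was limited to shared peaks. Unshared peaks lacking H3K9ac numbered 434 within 10 kb and 704 beyond 100 kb, and those carrying it 445 and 175. Of all unshared ones 62.5% lacked it, against 39.3% of shared ones. Of all active non-promoter peaks, 370 lacked it and 529 carried it in the weakest group, against 1014 and 587 in the strongest.

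**Figure D4:**
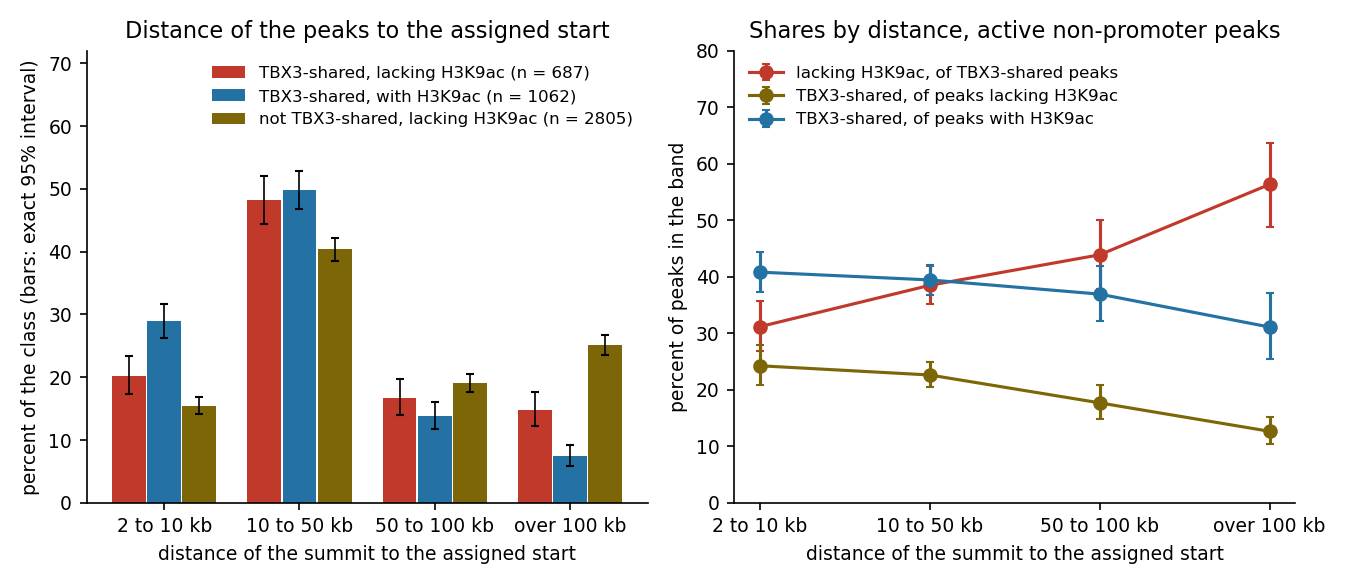
Left: percent of each class of active non-promoter peaks in 4 bands of distance from summit to assigned start. Right: in each band, the percent lacking H3K9ac among TBX3-shared peaks, which is 31.2% within 10 kb and 56.4% beyond 100 kb, and the percent shared with TBX3 among peaks lacking or carrying H3K9ac (bars: exact 95% binomial intervals).

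The 687 peaks had another TBX5 summit close by about as often as the whole list. Another summit lay within 10 kb of 215 of them (31.3%, 27.8 to 34.9), against 32.9% of all peaks, 49.3% (46.3 to 52.4) of H3K9ac-marked shared peaks and 32.2% (30.5 to 34.0) of unshared H3K9ac-negative peaks. A summit with H3K9ac lay within 10 kb of 85 (12.4%), against 39.7% of H3K9ac-marked shared peaks and 11.6% of unshared H3K9ac-negative peaks. Unshared active non-promoter peaks with H3K9ac stood at 48.1% for any summit and 36.8% for an H3K9ac-marked one. The median distance to the nearest H3K9ac-marked summit was 72500 bp for the 687 peaks and 19322 bp for H3K9ac-marked shared peaks. Where another summit lay within 10 kb, the nearest was an unshared active non-promoter peak without H3K9ac in 93 of 215 cases (43.3%). That class held 2805 of all 12436 peaks, and the nearest summits of other peaks were not classed. The peak of the 687 had a higher fold than its nearest summit in 110 of the 215 cases (51.2%). In 19 of the 215 that nearest summit was itself one of the 687. Pairs of the 687 nearest to each other were counted from both sides, once as higher and once as lower. In 5 cases an H3K9ac-marked summit lay within 1000 bp. Only 11 clusters of summits chained within 10 kb held 2 of the 687 peaks, and none held 3.

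Of the 10 peaks of highest fold among the 687, 3 lay inside a gene body and 6 over 10 kb from any. Of all 687, 386 lay inside a body and 230 over 10 kb from any. Of the 35 with at least 20-fold, 15 lay inside a body and 20 outside. All 10 carried H3K4me1 in at least 1 file and none carried H3K4me3, against 97.8% and 1.75% of the 687. None of the 10 highest folds of the whole list was among the 687, and 7 of its 100 highest were, against 5.52% of all its peaks. A nearest gene only gives the position here, and which gene a peak acts on was not measured. The highest lay at chr16:90921259-90921832 (mm10), with 60.9-fold enrichment (52.6 to 70.2) from 189 fragments, 4183 bp from the body of Cfap298, a gene of motile cilia. The next lay at chr10:96708422-96708832 with 57.1-fold (48.7 to 66.4), 85811 bp from Btg1, an antiproliferative gene. The third lay at chr4:124236418-124236851 with 56.1-fold (48.1 to 65.0), 299671 bp from Rragc, a GTPase gene of nutrient signalling. The intervals of these 3 overlap.

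The fourth was lower, with 42.4-fold (37.0 to 48.3) at chr10:121246899-121247556, 16683 bp from Tbc1d30, although its interval still met that of the third. Ric8b, a chaperone gene for G proteins, held a 42.0-fold peak (34.9 to 50.1) in its body at chr10:85001941-85002351. Peaks near Azin1, a regulator of polyamine synthesis (40.1-fold, 48093 bp away), and Nrp1, a receptor of vessels and axons (38.2-fold, 245374 bp away), followed. Tomm34, for mitochondrial import (35.0-fold), and Mtr, the methionine synthase (32.9-fold), each held a peak in the body. The lowest folds were 2.71 at chr9:96977314-96977515 in Spsb4 and at chr11:102643770-102643989 near Meioc, and 2.86 at chr8:126847945-126848265 near Tomm20, where 17, 17 and 14 fragments were counted.

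The T-box genes themselves were represented at the Tbx3 and Tbx5 locus on chromosome 5. A 35.9-fold peak (30.96 to 41.4) at chr5:119575035-119575584 lay 95278 bp from the body of Tbx3, the nearest coding gene, and 5100 bp from the start that the authors assigned, which matched no RefSeq start. Inside Tbx5, a pair of peaks had 9.93-fold (7.44 to 13.0) at chr5:119862500-119862855 and 8.63-fold (5.98 to 12.1) at chr5:119856987-119857502, with summits 5404 bp apart and intervals that overlap. Of 17 T-box genes Tbx5 alone had one of the 687 peaks in its body or within 10 kb, while 6 had a TBX5 summit of any class.

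Gene lists were read the same way, a gene counting if its body, widened by 10 kb on each side, held a summit. Of all 21631 protein-coding genes, 482 had at least 1 of the 687 peaks (2.23%). Of the 282 different genes of 12 lists, 21 had one. For conduction and pacemaker genes it was 4 of 30 (13.3%, 3.76 to 30.7). Gjd3, a connexin gene of the conduction system, had the strongest at chr11:98985505-98985984 with 32.4-fold (26.98 to 38.6), 2728 bp outside its body. It was the only TBX5 summit counted for Gjd3 and also lies within 10 kb of Top2a. Scn10a, a sodium channel gene, held a 22.2-fold peak (17.3 to 28.0) at chr9:119632071-119632647. An H3K9ac-marked summit lay 2021 bp from it. Kcnq1, the channel of the slow delayed rectifier current, had 1 of 6.30-fold (4.37 to 8.81). Cacna1c, the L-type calcium channel, had 1 of 6.28-fold (3.803 to 9.84), against 42.6-fold for the strongest of the 16 summits counted for Cacna1c. This 6.28-fold peak also lies within 10 kb of Dcp1b.

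Calcium handling genes counted 3 of 20 (15.0%, 3.21 to 37.9). Cacnb2, an accessory subunit of the L-type channel, had 2 of the 687 peaks, the stronger with 16.5-fold (12.1 to 21.997) at chr2:14917652-14917975, which was also the strongest of its 7 summits. Camk2d, a calcium-dependent kinase gene, had 1 of 5.89-fold (3.62 to 9.13), and Cacna1c was the other. Energy metabolism genes counted 5 of 30 (16.7%, 5.64 to 34.7). Esrrg, a nuclear receptor of oxidative metabolism, had 2, with 13.2-fold (9.95 to 17.2) for the stronger, and Ppargc1a, the coactivator of mitochondrial genes, had 2, with 7.004-fold (4.24 to 10.98). Slc2a1, a glucose transporter gene, had 1 of 5.75-fold, 4031 bp outside the gene, the coactivator gene Ppargc1b 1 of 5.23-fold, and Cpt1b, of mitochondrial fatty acid import, 1 of 4.39-fold that also lies within 10 kb of Syce3.

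Sarcomere genes counted 3 of 32 (9.38%, 1.98 to 25.0), each with a modest peak. Smyd1, a muscle methyltransferase gene, had 5.73-fold (3.898 to 8.14) just outside its body, at a peak that also lies within 10 kb of Fabp1. Myl4, the atrial light chain, had 5.38-fold (3.42 to 8.09) and Fhod3, an actin-assembling formin, 4.17-fold (2.41 to 6.81). Of the genes of cell adhesion and intercalated disc, Sorbs2 held a 14.1-fold peak (10.7 to 18.3) and Palld an 8.62-fold peak. Both encode proteins that tie actin to junctions or adhesions. Cardiac transcription factor genes counted 2 of 34 (5.88%), namely Esrrg and Prox1, a homeobox gene with an 11.1-fold peak (7.77 to 15.5). H3K9ac-marked shared peaks stood at 12 of the same 34 genes, at 7 of the conduction and pacemaker genes, 7 of the sarcomere genes, 6 of the calcium handling genes and 8 of the energy metabolism genes, and at 732 of all protein-coding genes (3.38%). BMP and TGF-beta signalling genes counted 0 of 33 (up to 10.6%), although 23 of them had a TBX5 summit of some class and 6 an H3K9ac-marked shared peak.

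Natriuretic peptide and chamber genes counted 1 of 16, which was Myl4 again. Endothelial, epicardial and fibroblast genes counted 1 of 20, a 27.3-fold peak (22.4 to 33.0) at chr11:106677601-106678284 inside Pecam1, an endothelial adhesion gene. Liver genes counted 1 of 20, a 5.57-fold peak at Ttr, the carrier of thyroxine, and neuronal genes 0 of 20 (up to 16.8%). Against the 2.23% of all genes, 10 of the 12 lists stood higher, among them the liver list, and BMP and TGF-beta signalling and neurons at 0. In lists this short 1 gene was enough for that, and the T-box, natriuretic, endothelial and liver lists each rested on 1. The intervals of these lists hold 2.23%. So do those of the cardiac transcription factor and sarcomere lists and of the lists at 0. Of the 6475 genes with any TBX5 summit 7.44% had one of the 687 peaks. Counted over such genes the share was highest for the liver list, at 50.0%, which was 1 of 2 genes. It was 27.8% for energy metabolism, 18.8% for calcium handling, 16.7% for conduction and pacemaker genes and 16.7% for T-box genes. It was 12.5% for endothelial, epicardial and fibroblast genes, 10.7% for the sarcomere, 9.09% for natriuretic peptide and chamber genes, 7.69% for cardiac transcription factors and 0 for BMP and TGF-beta signalling and for neurons. Lists share Cacna1c, Esrrg and Myl4, and no test of the lists was made.

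**Figure D5:**
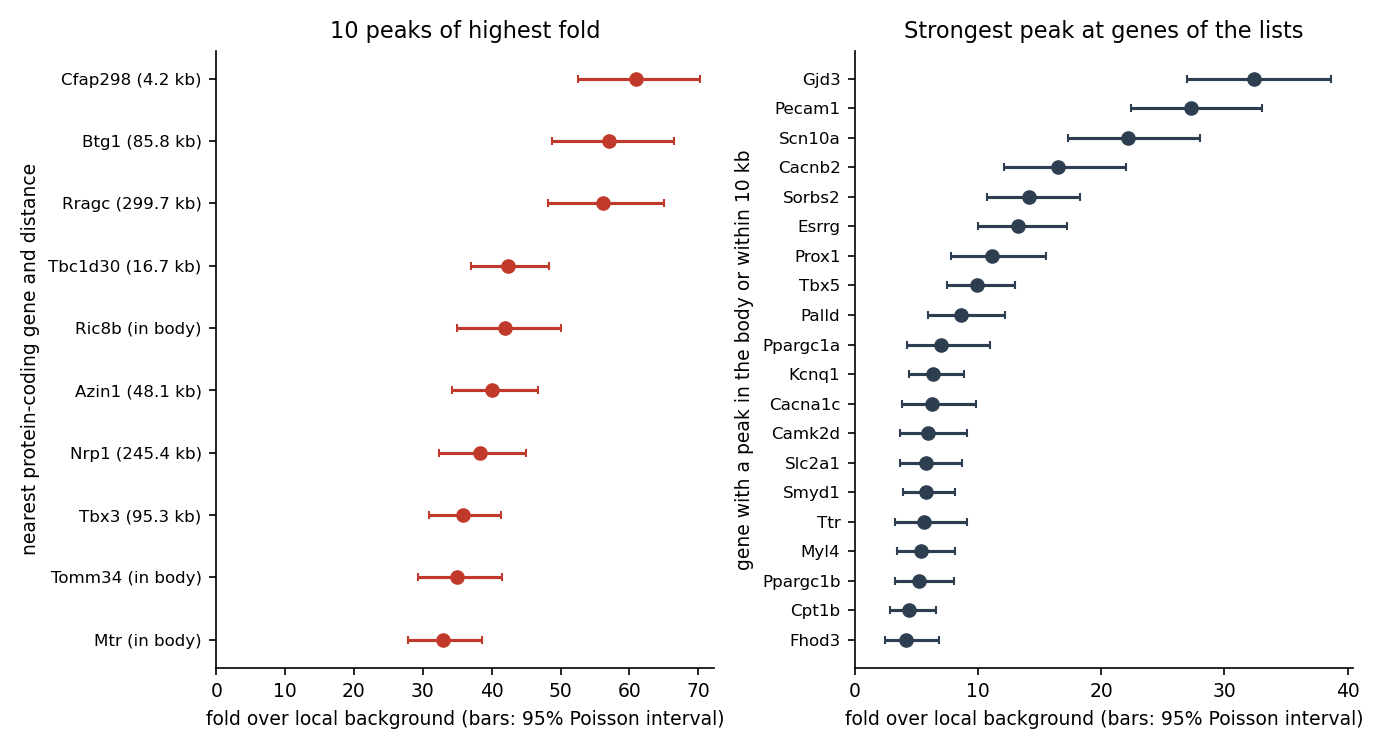
Fold enrichment with exact 95% Poisson intervals for the 10 strongest of the 687 peaks, named by nearest protein-coding gene and its distance (left), and for the strongest of the 687 peaks at genes of the lists (right). The 10 strongest run from 32.9-fold to 60.9-fold, and the list genes from 4.17-fold at Fhod3 to 32.4-fold at Gjd3.

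Few genes gathered several of the 687 peaks. At least 2 stood at 34 genes and at least 3 at 5. Arhgap26, a GTPase-activating protein gene, had 4 of its 11 summits among them, with 5.89-fold at most. Nav2, a cytoskeletal gene, had 4 of 21, the strongest with 20.5-fold (16.6 to 25.1), which was also the strongest of all its summits. Sdk1, an adhesion gene, had 4 of 13, up to 17.9-fold (14.52 to 21.9), against 34.2-fold for its strongest summit. Cdkal1, a tRNA-modifying enzyme gene, had 3 of 19. These 4 are long genes, of 651028 to 974090 bp. At 146 of the 482 genes no other TBX5 summit was counted, among them Gjd3 and Ttr. At the other 336, one of the 687 peaks was the strongest summit in 134 cases.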

How the data were processed

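TBX5 ChIP-seq of E14.5 mouse hearts comprised 2 TBX5 samples and 1 input sample, with adaptor-ligated fragments kept at 200 to 650 bp and sequenced from 1 end over 50 bases, per the labels' protocols. The submitters' processing notes name mm10 and the tools ChIPseeker, MACS2, SAMtools and Bowtie2, without versions or settings. The deposited peaks are named as pooled, and no sources used here give a read depth by sample. Values deposited by the authors for each peak are a fold (ratio of pooled ChIP over local background at the summit), −log10 p and −log10 q, a score and yes or no overlaps with histone mark and TBX3 regions. H3K4me1, H3K4me3 and H3K27ac had a pair of region files each. All 12436 peaks had the same positions in the 3 deposited lists. Starts are printed 1-based.

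Pileup and background were solved from the fold, (pileup + 1)/(background + 1), with −log10 p taken as the Poisson probability above the pileup. A whole number matched within 0.0005 for all 12436 peaks, and the solver was tested on simulated data. Shares have exact Clopper-Pearson intervals, medians have intervals from binomial order statistics. Genes are the 21631 protein-coding genes of the RefSeq table, which holds gene bodies. The start behind an authors' distance was matched by position to a RefSeq start for 343 of the 687 peaks. Scripts ran in Python 3.11.15 with matplotlib 3.10.9, scipy 1.17.1, pandas 2.3.3 and numpy 2.4.6.

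Members and gene lists were chosen with earlier results of these data known. Named were the 10 peaks of highest and the 3 of lowest fold, up to 4 genes per list with the strongest peaks (5 for energy metabolism, the fifth added after its value was seen), the genes with the most peaks and the 3 strongest peaks with H3K4me3. A gene that this rule also chose is not reported here. Alternatives were a −log10 q of at least 10, 1 peak per cluster, both region files, other distances to genes and left-out chromosomes. With no genome sequence of the build at hand, motifs were not counted over the peaks, and the printed sequences are those of summits in promoter windows, not those of the strongest peaks.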

Additional observations from a re-analysis of the deposited data

How the results depend on the processing

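No paired analysis was possible because the peaks were called once on the pooled samples, so no value belongs to a replicate, and for the same reason no replicate could be left out. Of 50 alternative values, 33 stayed close to the reported value or kept its direction, 13 moved further and 4 changed direction. The changes of direction arose when pileup or background was read in place of the fold. The ratio of the 687 peaks to H3K9ac-marked shared peaks was 0.958 by pileup and 0.800 by background, against 1.11 by fold. To unshared H3K9ac-negative peaks it was 1.05 by pileup and 1.20 by background, against 0.953 by fold. Since the fold is divided by the background, the changes by background are no separate check of the fold. With −log10 q of at least 10 the median folds were 9.04 for the 687 peaks, 8.34 for H3K9ac-marked shared peaks and 9.94 for unshared H3K9ac-negative peaks, and with the strongest peak per cluster 6.73, 6.21 and 7.05, with the classes in the same order. With both files required, H3K4me1 marked 83.3% and H3K4me3 0.873% of the 687 peaks. Another summit lay within 50 kb of 71.0%, and within 10 kb of 15.3% when only peaks with −log10 q of at least 10 were read. List genes with one of the 687 peaks numbered 32 at 50 kb, 32 by nearest gene and 12 with −log10 q of at least 10, against 21. Alternatives on the T-box motif were not run, since no genome of the build was at hand. Peaks below the authors' threshold were not detectable at this depth.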

Other observations

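H3K9me3 overlapped 4 of the 687 peaks (0.582%, 0.159 to 1.48), which were named after their values were seen. They lay near Sema4f (6.31-fold), near Padi3 (5.93-fold), 1821 bp from Smyd1 (5.73-fold) and inside Sbf2 (4.36-fold). The share was 0 of the 1062 H3K9ac-marked shared peaks, which allows up to 0.347%, 7 of the 2805 unshared H3K9ac-negative peaks (0.250%, 0.100 to 0.513) and 30 of all 12436 peaks (0.241%). The interval of the 687 peaks overlaps all of these.

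The 687 peaks were found on chromosomes 1 to 19 and X, with 62 on chromosome 2 as the highest number. They made up 2.71% (1.49 to 4.502) of the peaks of chromosome 14 and 2.63% (0.722 to 6.601) of those of chromosome X, against 5.52% of the whole list, and up to 6.90% (4.70 to 9.70) on chromosome 16. On chromosome 14, 8.70% of active non-promoter peaks without H3K9ac were shared with TBX3, against 22.2% on chromosome 2. No test over chromosomes was made.

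Close summits of different marks were also found. At Spsb4 a 2.71-fold peak without H3K9ac had an H3K9ac-marked summit 368 bp away. Near Fhl2, a LIM-domain gene of the heart named after its values were seen, a cluster of 5 summits over 20402 bp held 2 of the 687 peaks (10.7-fold and 3.56-fold), while its strongest summit, with 29.3-fold, was not shared with TBX3.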
